A study of Mus musculus with 12 samples.

Results

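The genes of the CaM kinase, calcineurin, protein kinase C (PKC) and MAP kinase pathways were examined in mouse hippocampal slices after chemical LTP (cLTP), a drug-induced form of long-term potentiation in which synapses are strengthened for hours. The set was a list of 38 symbols out of 41091 gene identifiers counted, matched to Ensembl identifiers with GENCODE M21, and all 38 were present in the tables of both time points. By role it held 9 CaM kinases (Camk1, Camk1d, Camk1g, Camk2a, Camk2b, Camk2d, Camk2g, Camk4 and the kinase-like Camkv), 2 CaM kinase kinases (Camkk1, Camkk2), 2 CaMKII inhibitors (Camk2n1, Camk2n2), 3 genes of calmodulin and its store neurogranin (Calm2, Calm3, Nrgn) and 4 calcineurin subunits (Ppp3ca, Ppp3cb, Ppp3cc, Ppp3r1). The others were 5 PKC isoforms (Prkca, Prkcb, Prkcd, Prkce, Prkcz), 5 MAP kinases (Mapk3, Mapk8, Mapk9, Mapk10, Mapk14), 4 MAP kinase kinases (Map2k1, Map2k2, Map2k4, Map2k7) and 4 ribosomal S6 kinases of the RSK and MSK families (Rps6ka1, Rps6ka2, Rps6ka3, Rps6ka5).

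Calcium that enters a neuron through NMDA receptors binds calmodulin, and calcium-loaded calmodulin switches on both the CaM kinases and the phosphatase calcineurin, which act in opposite directions on many of the same synaptic proteins. CaMKII in dendritic spines is known for starting and holding the early phase of potentiation, and PKC alpha and beta respond to calcium and diacylglycerol. The ERK branch of the MAP kinases carries the signal through RSK and MSK to transcription factors such as CREB. All of these enzymes are regulated mainly as proteins, by calcium, phosphorylation and inhibitor binding, while the data here are levels of their RNA.

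Slices came from wild-type C57BL/6 mice of 2-3 months, with the dentate gyrus cut away. LTP slices received the adenylyl cyclase activator forskolin (50 uM) for 5 min, after which KCl (30 mM) and calcium (10 mM) were added for the rest of a 10 min treatment. Control slices received 0.2% DMSO for 10 min, and slices of both kinds were frozen 1 hr or 3 hr afterwards. Each of the 4 groups (1 hr control, 1 hr LTP, 3 hr control, 3 hr LTP) had 3 libraries of ribosomal RNA-depleted total RNA, and the LTP and control libraries with the same number at a time point came from the same animal. The labels do not say whether 1 hr and 3 hr slices shared animals, so time after treatment and the animals or slice preparation used at each time cannot be told apart. The LTP treatment raises cAMP, potassium and calcium together, and no group received these separately.

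Libraries held 37118382 to 50815001 counts, of which the 38 members took 1.59 to 1.90%, and the lowest count of any member in any library was 262. Levels are given as CPM, the count scaled to library size after TMM normalization across libraries. Following the published analysis, a control library that stood apart in clustering was left out of the tests, except in alternatives that name it. It was replicate 2 of the 1 hr controls, whose counts differed from those of replicates 1 and 3 with a chi-square of 47.0 and 63.3 per degree of freedom, against 10.2 between the latter. Its values are still given below, and in it Camkk1, Map2k2, Mapk14, Calm2, Ppp3ca, Ppp3cc and Camk4 lay between the levels of the other 1 hr controls and of the 3 hr controls. The immediate early gene Fos, a check of the stimulation, stood at 739 to 829 CPM in the LTP libraries of the 1 hr time point and at 193 to 280 CPM in their controls. At the 3 hr time point it stood at 719 to 783 CPM in LTP slices and 253 to 305 CPM in controls. Pyramidal neuron markers were detected in every library, and those of dentate granule cells also remained, at a summed 162 to 293 CPM over 5 genes. Slices are mixtures of cells, so that fewer cells of a type and less RNA per cell cannot be told apart.

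The study describes its expression analysis as resting on reads in coding regions, but the deposited tables also count genes that have no coding sequence, so it is not certain which bases the counts cover. Levels were therefore compared per kilobase on both lengths, in the 3 hr controls. Per kilobase of coding sequence Calm2 was highest at 3804 ± 281 CPM per kb (SD, n = 3) and Calm3 next at 3794 ± 77.5, with overlapping ranges. The CaMKII inhibitor Camk2n1 (2017 ± 79.3) and Ppp3ca, the catalytic alpha subunit of calcineurin (1718 ± 85.5), followed, each apart from its neighbours. Ppp3r1, the regulatory subunit of calcineurin (1485 ± 107), and Nrgn (1346 ± 105) overlapped, Camk2a, the alpha subunit of CaMKII, was below them at 1020 ± 25.7, and Rps6ka1 was lowest at 3.17 ± 0.372. Per kilobase of exon Calm2 and Calm3 were again highest, at 1159 ± 85.6 and 860 ± 17.7 CPM per kb, but Camk2n1 was ninth and Camk2d lowest at 1.55 ± 0.111.

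**Figure D1:**
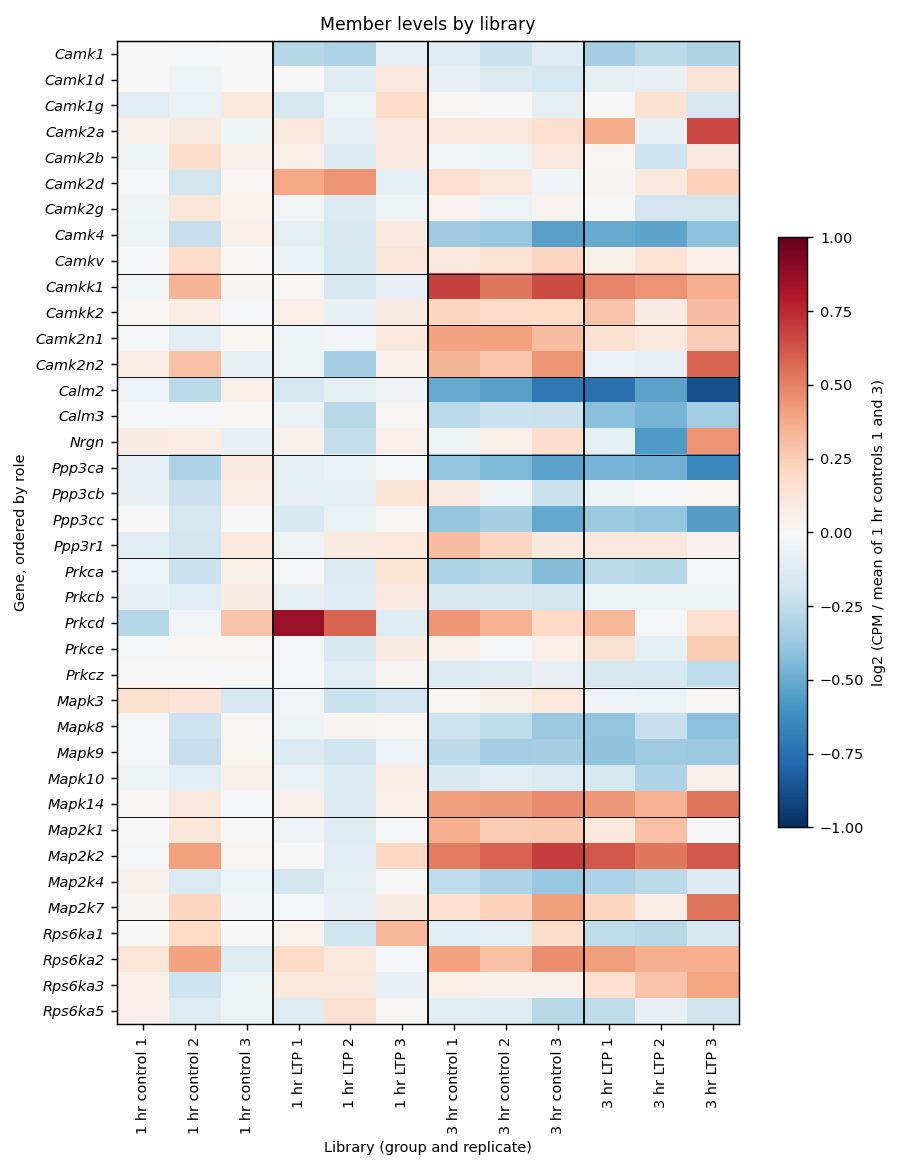
Levels of the 38 members (rows, ordered by role, with lines between roles) in the 12 libraries (columns), as the log2 ratio of CPM to the mean of 1 hr controls 1 and 3. Camkk1, Map2k2 and Mapk14 are higher in all 6 libraries at 3 hr, Calm2, Ppp3ca and Camk4 are lower in all 6, and few rows differ between LTP and control columns of the same time point.

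Whether cLTP changed the RNA of its own signalling machinery was asked at each time point. At 1 hr none of the 38 members was called (adjusted p under 0.1 and a change of more than 1.2-fold in edgeR's quasi-likelihood test), where 0.789% of all 17736 genes tested were. The median log2 fold change of the members was -0.01, against -0.001 over all genes, and members ranged from -0.21 (Camk1) to 0.48 (Prkcd). Before adjustment 3 members had a p under 0.05, the smallest adjusted p was 0.690, and DESeq2 and limma-voom also called 0. The 95% interval of the fold change lay within 1.5-fold in either direction for 37 members, all but Prkcd, and within 1.2-fold for 31. Among the libraries tested, LTP and control slices did not overlap for 3 members (7.89%), Camk1, Map2k1 and Mapk9, all lower in LTP, where 22.6% of all genes did not overlap. With 1 hr control replicate 2 counted as well there were 2 (5.26%, against 13.4% of all genes), since Mapk9 stood at 163 CPM in it, below all LTP libraries.

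Prkcd, a calcium-independent PKC isoform, had the largest standard error of the members at 1 hr. It stood at 24.4, 29.1 and 36.0 CPM in control replicates 1, 2 and 3, and at 54.0, 44.3 and 27.2 CPM in the LTP slices of the same animals. The first and second LTP libraries were above every control and the third was below the control of its own animal, and the difference of 0.48 on the log2 scale (SE 0.212) had an adjusted p of 0.723, with an interval from 0.03 to 0.93. Without 1 hr LTP replicate 3 the difference was 0.71 and passed the test, with an adjusted p of 0.00503. It also passed with no filter beyond 1 count (adjusted p = 4.87e-05). Another pass came with the animal as a block together with GC and length offsets (adjusted p = 0.00435). The block fit left out 1 hr control replicate 2, so its difference came from animals 1 and 3 alone. Their log2 ratios of LTP to control, 1.14 and -0.40, had opposite signs, so that small p does not show a shared rise. The summed markers of dentate granule cells were 259, 200 and 162 CPM in those 3 LTP libraries, in the order of Prkcd, but 215, 222.5 and 210 CPM in the controls, where the library highest in Prkcd was the lowest. Those of thalamus, the structure next to the hippocampus, were 25.4, 33.2 and 20.6 CPM in the LTP libraries and 27.7, 31.1 and 28.2 CPM in the controls, and in neither group followed the order of Prkcd. Their part in the level of Prkcd was not tested.

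Camk2d, a widely expressed CaMKII subunit, had a like pattern, with 43.0, 45.0 and 30.8 CPM in the 1 hr LTP libraries and 32.4, 29.0 and 33.4 CPM in the controls. Its log2 difference was 0.28 (SE 0.128, adjusted p = 0.737), and it passed when 1 hr LTP replicate 3 was left out. Camk1, a CaM kinase that is activated by the CaM kinase kinases, stood at 28.5, 28.2 and 28.4 CPM in the controls and at 23.3, 23.0 and 26.8 CPM in LTP slices. All LTP libraries were below all controls, yet the log2 difference of -0.21 (SE 0.0905) had an adjusted p of 0.690.

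At 3 hr again none of the 38 members was called, whereas 6.6% of the 17508 genes tested were, 5.07% higher and 1.53% lower in LTP slices. The members' median was -0.04, against -0.0025 over all genes, and they ranged from -0.22 (Rps6ka1) to 0.24 (Rps6ka3). The 95% interval lay within 1.5-fold for all 38 members and within 1.2-fold for 21, with that of Camk2a reaching closest to the limit at 0.58 on the log2 scale. Before adjustment 5 members had a p under 0.05, and DESeq2 and limma-voom also called 0. Groups did not overlap for 9 members (23.7%, 2 higher and 7 lower in LTP), against 27% of all genes. The 7 lower were Camk1, Camk2n1, Camkk1, Calm3, Mapk9, Prkcz and Rps6ka1. Of these, Camk1 (-0.14, adjusted p = 0.304) and Mapk9 (-0.05, adjusted p = 0.669) were also lower without overlap at 1 hr, among the libraries tested.

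Rps6ka3, which encodes RSK2, a kinase that ERK activates and that phosphorylates CREB, came closest to the criteria. It stood at 48.5, 47.6 and 48.1 CPM in the 3 hr controls and at 51.9, 56.6 and 60.9 CPM in the LTP slices. Every LTP library was above every control, and the log2 ratio of LTP to control within each animal was 0.10, 0.25 and 0.34. The fitted log2 difference was 0.24 (SE 0.0707, 95% interval 0.08 to 0.40) with an adjusted p of 0.0977, which passed the p threshold but not the fold minimum. That pass depended on the setting, since its adjusted p was 0.0520 in DESeq2 but 0.102 in limma-voom and 0.104 with upper quartile scaling. With GC and length offsets no member rose by more than 0.18 at 3 hr. At 1 hr Rps6ka3 stood at 48.1, 40.2 and 44.6 CPM in controls and 50.2, 50.2 and 43.9 CPM in LTP slices, with a log2 difference of 0.06 (adjusted p = 0.960).

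Camk2n1, an endogenous inhibitor that binds active CaMKII, stood at 481, 485 and 451 CPM in the 3 hr controls and at 404, 391 and 431 CPM in LTP slices. The groups did not overlap, but the log2 difference of -0.19 (SE 0.0635) had an adjusted p of 0.133. Camkk1 (CaM kinase kinase alpha) stood at 266, 238 and 260 CPM against 233, 226 and 213 CPM, a difference of -0.17 (SE 0.0654, adjusted p = 0.184), and Calm3 at 2034, 2113 and 2101 CPM against 1843, 1779 and 1926 CPM, a difference of -0.16 (adjusted p = 0.210). In these 3 genes LTP libraries were all lower, with fitted differences of -12.5, -11.3 and -10.4% of the control level. Prkcb, the conventional PKC beta, was the other member with non-overlapping higher values, at 679, 683 and 667 CPM in controls and 729, 732 and 733 CPM in LTP slices, with a log2 difference of 0.13 (adjusted p = 0.247).

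The main CaMKII subunit did not give a stable answer at 3 hr. Camk2a stood at 1793, 1803 and 1877 CPM in the controls and at 2158, 1589 and 2632 CPM in LTP slices, so that the LTP libraries lay on both sides of the controls. The log2 difference was 0.23 with an SE of 0.154 (adjusted p = 0.430), and became 0.41 with an adjusted p of 0.0177 when 3 hr LTP replicate 2 was left out. Neurogranin, which binds calcium-free calmodulin in dendrites, also lay on both sides of its controls, with 280, 203 and 411 CPM in LTP slices and controls of 290, 315 and 339 CPM (log2 difference -0.07, SE 0.210). Camk2n2 stood at 12.4, 12.2 and 19.4 CPM in LTP slices and at 16.4, 15.6 and 17.5 CPM in controls, and its difference of -0.16 became -0.42, with an adjusted p of 0.0338, without 3 hr LTP replicate 3. Replicates 2 and 3 of the 3 hr LTP group differed more than any other pair of replicates, with a chi-square of 85.6 per degree of freedom over all genes.

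None of the remaining members passed the test either. Rps6ka1, which encodes the ERK-activated kinase RSK1, stood at 7.38, 7.43 and 9.01 CPM in the 3 hr controls and at 6.64, 6.55 and 7.07 CPM in LTP slices. The groups did not overlap, and the difference of -0.22 (SE 0.107, adjusted p = 0.288), or -14.3%, was the largest fall of a member at 3 hr. Prkca, the conventional PKC alpha, had a difference of 0.17 (SE 0.0841, adjusted p = 0.296) with overlapping groups. The beta subunit of CaMKII, Camk2b, ranged from 1071 to 1268 CPM in LTP slices and 1148 to 1225 CPM in the controls tested at 1 hr, and from 1025 to 1267 against 1145 to 1280 CPM at 3 hr. ERK1, encoded by Mapk3, had log2 differences of -0.14 at 1 hr and -0.07 at 3 hr, while Map2k1 and Map2k2, whose products activate ERK, had -0.05 and 0.05 at the earlier time and -0.14 and 0.004 at the later. The JNK genes Mapk8, Mapk9 and Mapk10 lay between -0.12 and 0.01 at both times, and p38 alpha, Mapk14, was at 0.01 at both. Calcineurin subunits ranged from -0.06 to 0.06 at 1 hr and from -0.10 to 0.05 at 3 hr, and the adjusted p of every one of these was above 0.3. Whether the LTP effect itself changed between the time points was tested as an interaction, which called none of the members in edgeR, DESeq2 or limma-voom and, in edgeR, 0.0592% of 18584 genes. One member, Camk2n1, had an unadjusted p under 0.05 in that test (-0.21, adjusted p = 0.758), and the largest change in size, -0.62 in Prkcd with an SE of 0.296, had an adjusted p of 0.768.

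**Figure D2:**
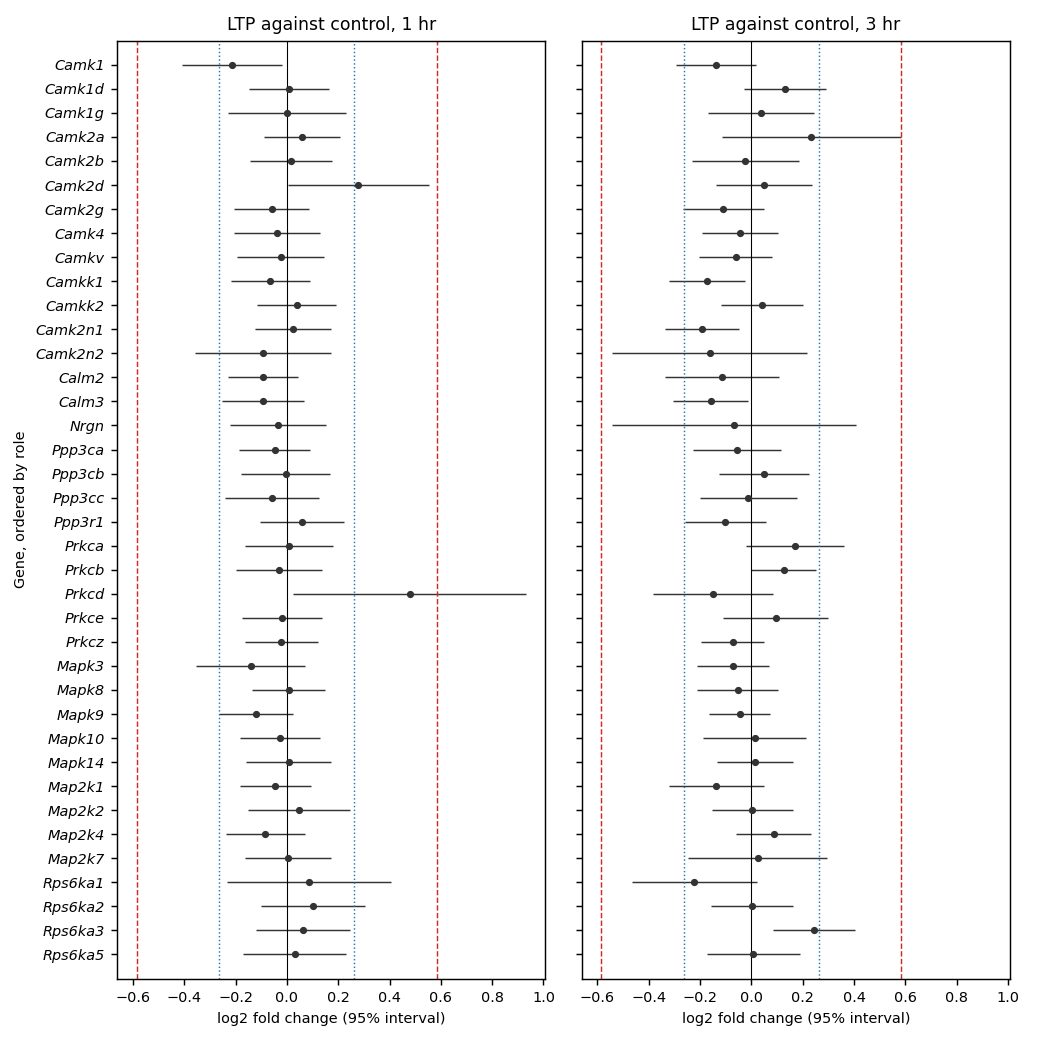
Log2 fold change of LTP against control slices for each member at 1 hr (left) and 3 hr (right), with its 95% interval from edgeR. Dotted lines mark 1.2-fold and dashed lines 1.5-fold; at 3 hr every interval lies inside the dashed lines, and at 1 hr only that of Prkcd crosses them.

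The difference between time points was larger than that between treatments. In control slices 15 of the 38 members (39.5%) differed between 3 hr and 1 hr, against 32.8% of the 18584 genes tested; 6 were higher at 3 hr (16.1% of all genes were) and 9 lower (16.8% of all genes). In LTP slices 12 members (31.6%) differed, against 35.9% of all genes, 5 higher and 7 lower at 3 hr, where 18.6% of all genes were higher and 17.3% lower. The shares of members were thus near those of all genes. Among the libraries tested, those of the time points did not overlap for 26 members (68.4%) in control slices and for 14 (36.8%) in LTP slices, against 60.7% and 44.9% of all genes. With 1 hr control replicate 2 counted, 19 members (50%) did not overlap in control slices, against 42.7% of all genes. The median of the members was -0.02 in control and -0.03 in LTP slices, against -0.02 and 0.0001 over all genes.

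Of the members, 10 were called in both slice types with the same sign, 4 higher at 3 hr (Camkk1, Map2k2, Mapk14, Rps6ka2) and 6 lower (Calm2, Calm3, Camk4, Mapk8, Ppp3ca, Ppp3cc). Control and LTP slices of a time point came from the same animals, so these are not separate observations of a time effect. In all, 17 members were called in at least 1 slice type and 21 in neither. How many of all genes were called in both, or in neither, was not counted, so these counts have no background to be read against. Camk4, Camkk1, Mapk14, Ppp3ca and Ppp3cc kept their call in both slice types under each of the 20 alternative settings.

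Start-site sequences are given for the members called in both slice types that have an entry among the RefSeq promoters, so that the start regions of genes that moved together can be read side by side. Of the 38 members, 28 matched an entry, and Camk4, Calm2, Ppp3ca, Rps6ka3, Camk2a, Camk2g, Mapk3, Ppp3cc, Camk2n1 and Prkce did not. Windows run from 250 bases before to 50 bases after the start on GRCm38.p6, 5' to 3' on the strand of the gene, and capitals mark the core of the cAMP response element (CRE), TGACG or its complement CGTCA on the printed strand. The members higher at 3 hr were Camkk1 (chr11:73018738-73019037, plus strand), Map2k2 (chr10:81105665-81105964, plus), Mapk14 (chr17:28691092-28691391, plus) and Rps6ka2 (chr17:7169865-7170164, plus).
Camkk1: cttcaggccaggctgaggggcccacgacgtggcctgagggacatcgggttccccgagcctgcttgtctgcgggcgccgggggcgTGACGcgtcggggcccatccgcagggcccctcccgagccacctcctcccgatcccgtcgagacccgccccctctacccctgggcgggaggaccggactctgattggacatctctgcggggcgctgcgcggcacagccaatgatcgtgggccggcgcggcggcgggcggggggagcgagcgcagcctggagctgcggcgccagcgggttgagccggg
Map2k2: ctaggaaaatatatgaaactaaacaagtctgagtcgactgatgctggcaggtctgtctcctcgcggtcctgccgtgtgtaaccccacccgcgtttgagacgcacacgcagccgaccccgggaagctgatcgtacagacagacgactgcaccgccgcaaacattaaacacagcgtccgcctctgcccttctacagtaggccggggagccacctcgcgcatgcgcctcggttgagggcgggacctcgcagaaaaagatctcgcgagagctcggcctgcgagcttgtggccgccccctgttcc
Mapk14: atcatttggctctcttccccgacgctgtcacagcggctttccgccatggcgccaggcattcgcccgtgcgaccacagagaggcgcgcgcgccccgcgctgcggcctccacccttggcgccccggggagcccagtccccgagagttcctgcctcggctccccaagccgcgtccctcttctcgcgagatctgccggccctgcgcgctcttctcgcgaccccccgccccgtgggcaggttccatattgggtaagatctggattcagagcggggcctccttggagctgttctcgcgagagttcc
Rps6ka2: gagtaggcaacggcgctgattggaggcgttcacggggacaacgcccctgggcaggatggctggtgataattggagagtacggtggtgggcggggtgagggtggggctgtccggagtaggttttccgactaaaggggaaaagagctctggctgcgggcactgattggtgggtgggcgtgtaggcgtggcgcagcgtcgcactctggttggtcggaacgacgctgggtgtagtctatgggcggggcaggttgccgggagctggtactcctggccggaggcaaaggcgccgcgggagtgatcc
The members lower at 3 hr were Calm3 (chr7:16923983-16924282, minus strand) and Mapk8 (chr14:33447109-33447408, minus). Mapk10 (chr5:103211285-103211584, minus), called in no comparison, is added as the only member with the full palindrome TGACGTCA.
Calm3: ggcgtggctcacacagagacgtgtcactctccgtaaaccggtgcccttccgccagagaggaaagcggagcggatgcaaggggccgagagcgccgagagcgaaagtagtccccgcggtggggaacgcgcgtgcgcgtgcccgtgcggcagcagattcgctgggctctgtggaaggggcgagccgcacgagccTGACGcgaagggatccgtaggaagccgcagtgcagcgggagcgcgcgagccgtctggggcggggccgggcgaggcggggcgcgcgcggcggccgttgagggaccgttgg
Mapk8: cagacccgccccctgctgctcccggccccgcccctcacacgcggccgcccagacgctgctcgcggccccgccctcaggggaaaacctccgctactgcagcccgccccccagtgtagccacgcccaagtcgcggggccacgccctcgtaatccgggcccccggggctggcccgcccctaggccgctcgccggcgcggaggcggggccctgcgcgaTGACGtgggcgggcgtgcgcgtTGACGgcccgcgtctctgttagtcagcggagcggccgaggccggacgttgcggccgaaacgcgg
Mapk10: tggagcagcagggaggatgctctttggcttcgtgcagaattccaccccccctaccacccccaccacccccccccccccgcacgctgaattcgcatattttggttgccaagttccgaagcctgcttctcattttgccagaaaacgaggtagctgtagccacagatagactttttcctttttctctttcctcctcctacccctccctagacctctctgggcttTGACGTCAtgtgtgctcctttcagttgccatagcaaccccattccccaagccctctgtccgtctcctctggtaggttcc

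The CRE is the site that CREB binds after cAMP or calcium signalling, and forskolin raises cAMP. The core began 166 bases before the start in Camkk1, 59 before it in Calm3, and 36 and 14 before it in Mapk8. Those letters were not in the windows of Map2k2, Mapk14 and Rps6ka2, and the windows of members called in 1 slice type are not printed. The core TGACG, on either strand, was in 13 of the 28 member windows (46.4%) and in 20.8% of all 32851 windows. The full TGACGTCA was in 1 of 28 (Mapk10) and in 1.79% of all, and overlaps the core by construction. The GC box GGGCGG was in 24 of 28 (85.7%) against 35.7%, and the E-box CACGTG in 1 of 28 (Prkcd) against 7.15%. All windows include those of genes with far lower GC content, with a median of 52.7%, while the 28 member windows have 44.7 to 79% GC and all but those of Camk1g and Ppp3cb lie above that median, so the shares are not like for like.

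Of the 4 calcineurin subunits 2 were lower at 3 hr, Ppp3ca and Ppp3cc, as were both calmodulin genes, whose calls depended on the setting. Ppp3ca stood at 3452, 2970 and 3937 CPM in the 1 hr controls and 3469, 3514 and 3663 CPM in 1 hr LTP slices. At 3 hr it stood at 2815, 2694 and 2548 CPM in controls and 2674, 2641 and 2360 CPM in LTP slices. No 3 hr library reached the lowest 1 hr library, and the log2 difference was -0.49 in both control (SE 0.0788, adjusted p = 6.29e-04) and LTP slices (SE 0.0713, adjusted p = 2.37e-04). Ppp3cc, the gamma catalytic subunit, fell by 0.44 (adjusted p = 0.00253) and 0.39 (adjusted p = 0.00229) on the log2 scale. It stood at 23.6 to 26.8 CPM over the 6 libraries at 1 hr and at 18.1 to 21.1 CPM over the 6 at 3 hr. The other subunits did not pass: Ppp3cb, the beta catalytic subunit, differed by -0.08 and -0.02, and Ppp3r1 by 0.18 and 0.02. A part of the exonic bases of Ppp3r1 (14.3%) is shared with Wdr92 on the same strand, so its counts are less certain.

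Calm2, which encodes a calmodulin protein identical to that of Calm3, had the largest fall in the main test, though not with GC and length offsets, under which it lost its call in both slice types (-0.26 and -0.25). Its 1 hr libraries held 2447, 2122 and 2660 CPM in controls and 2258, 2380 and 2492 CPM in LTP slices, and its 3 hr libraries 1796, 1747 and 1558 CPM and 1518, 1760 and 1388 CPM. The log2 difference was -0.62 in control (SE 0.0944, adjusted p = 4.68e-04) and -0.63 in LTP slices (SE 0.0857, adjusted p = 1.53e-04). Calm3 fell by 0.27 (adjusted p = 0.0218) and 0.33 (adjusted p = 0.00343) on the log2 scale, close to the fold minimum in control slices, where only 3 of the 20 alternative settings kept the call. Nrgn was called in neither, with 0.04 and 0.01, but its sign and call in LTP slices changed when 3 hr LTP replicate 3 was left out, as given in the last section.

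Among the CaM kinases only Camk4 was called. This nuclear kinase phosphorylates CREB, and it stood at 280, 247 and 301 CPM in 1 hr controls and 270, 261 and 310 CPM in 1 hr LTP slices, against 227, 223 and 200 CPM and 204, 201 and 218 CPM at 3 hr. All 3 hr libraries were below all 1 hr libraries, with a log2 difference of -0.45 in control (SE 0.0838, adjusted p = 0.00153) and -0.45 in LTP slices (SE 0.0758, adjusted p = 5.84e-04). Camkk1, whose product activates CaMKI and CaMKIV, went the other way. It stood at 162, 209 and 169 CPM in 1 hr controls and 168, 147 and 157 CPM in 1 hr LTP slices, and the 6 libraries at 3 hr held 213 to 266 CPM. The log2 difference was 0.59 in control (SE 0.0747, adjusted p = 1.46e-04) and 0.49 in LTP slices (SE 0.0660, adjusted p = 1.43e-04). The 1 hr control replicate 2, at 209 CPM, was the 1 hr library nearest to the 3 hr values. Its relative Camkk2 was called in neither, at 0.17 and 0.18, and the 4 CaMKII subunits ranged from -0.03 to 0.10 in control and from -0.17 to 0.28 in LTP slices without a call.

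The inhibitor Camk2n1 was called in control slices alone. It stood at 360, 338 and 368 CPM in 1 hr controls and 481, 485 and 451 CPM in 3 hr controls, a log2 difference of 0.35 (SE 0.0730, adjusted p = 0.00329). In LTP slices it stood at 351, 357 and 392 CPM and 404, 391 and 431 CPM, a difference of 0.14 (SE 0.0647, adjusted p = 0.111). The difference between these 2 contrasts is the interaction given above, which did not pass, so Camk2n1 was not shown to differ with time in control slices alone.

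In the MAP kinase modules members moved in both directions. Mapk14 (p38 alpha) stood at 71.6, 76.4 and 69.6 CPM in 1 hr controls, 73.3, 64.3 and 73.6 CPM in 1 hr LTP slices, 94.1, 95 and 98 CPM in 3 hr controls and 95.1, 89.7 and 103 CPM in 3 hr LTP slices. Every 3 hr library was above every 1 hr library, and the log2 difference was 0.41 (SE 0.0773, adjusted p = 0.00171) and 0.43 (SE 0.0686, adjusted p = 4.64e-04). Map2k2 (MEK2) rose by 0.57 and 0.54, with 37.1 to 53.2 CPM at 1 hr and 57.1 to 64.6 CPM at 3 hr, but with GC and length offsets the differences were 0.15 and 0.13 and neither was called. Map2k1 (MEK1) rose by 0.26 in control slices (adjusted p = 0.0242), at the edge of the fold minimum, and 15 of 20 alternatives kept the call. In LTP slices it differed by 0.18 (adjusted p = 0.0648), short of that minimum. ERK1 itself, Mapk3, differed by 0.02 and 0.10 and was not called. The JNK genes Mapk8 and Mapk9 fell in control slices by 0.31 and 0.34, Mapk8 also fell in LTP slices by 0.36, and Mapk9 there missed the fold minimum at -0.26 (adjusted p = 0.00229). Mapk8 lost both calls with GC and length offsets, as given below. Map2k4, a kinase that activates JNK, fell by 0.34 in control slices (adjusted p = 0.00393). In LTP slices it differed by -0.16 without a call (adjusted p = 0.0712). Map2k7, which also activates JNK, rose by 0.28 in LTP slices (adjusted p = 0.0543). In control slices Map2k7 differed by 0.25 without a call (adjusted p = 0.126). Map2k7 shares 35.2% of its exonic bases with Gm49320 on the same strand, and 15 of 20 alternatives kept its call.

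Among the kinases downstream of ERK, Rps6ka2 (RSK3) rose by 0.36 in control (adjusted p = 0.00963) and 0.26 in LTP slices (adjusted p = 0.0199), the latter at the edge of the fold minimum. It lost both calls with GC and length offsets, as given below. Rps6ka1 differed by -0.02 in control slices and fell by 0.32 in LTP slices (adjusted p = 0.0631). Its LTP libraries held 6.91 to 9.97 CPM at 1 hr and 6.55 to 7.07 CPM at 3 hr, with overlap, and 16 of 20 alternatives kept the call. Rps6ka3 missed the fold minimum in LTP slices at 0.21 (adjusted p = 0.0389), and Rps6ka5 (MSK1) was at -0.20 and -0.21 with adjusted p of 0.131 and 0.0665. Of the 5 PKC isoforms among the members only Prkca was called, in control slices, where it fell by 0.37 (adjusted p = 0.0110), from 463 and 500 CPM in the 1 hr controls tested to 387, 395 and 357 CPM. In LTP slices Prkca differed by -0.20 (adjusted p = 0.0859), short of the fold minimum. Prkcb, Prkcd, Prkce and Prkcz were called in neither slice type.

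**Figure D3:**
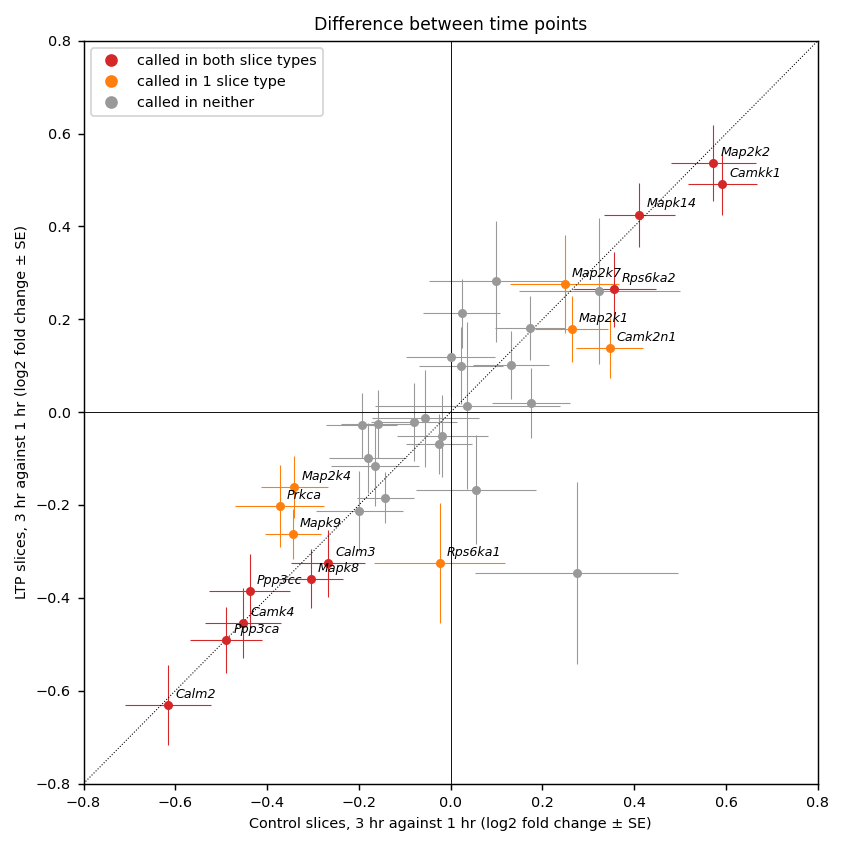
Log2 fold change of 3 hr against 1 hr libraries in control slices (x axis) and LTP slices (y axis) for the 38 members, with SE bars; colours give the number of slice types with a call, and the dotted line marks equal values. The 10 members called in both lie near the dotted line, and Rps6ka1 and Prkcd (the grey point at the lower right) lie farthest from it.

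**Figure D4:**
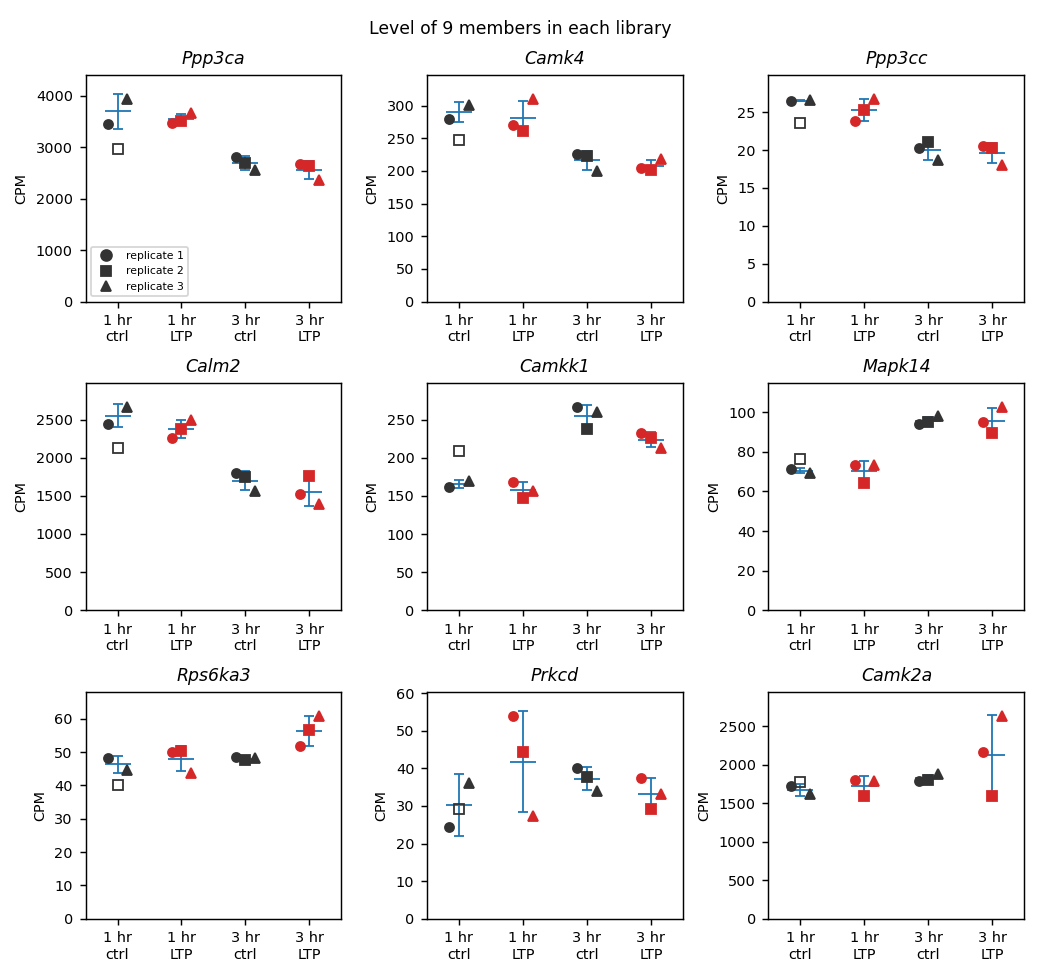
CPM of 9 members in each library (black, control; red, LTP; marker shape, replicate number within the time point), with the mean and SD of each group in blue; the open square is 1 hr control replicate 2, left out of the mean. Ppp3ca, Camk4, Ppp3cc and Calm2 are lower and Camkk1 and Mapk14 higher at 3 hr in both slice types, while Rps6ka3, Prkcd and Camk2a show the spread between LTP libraries.

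The base composition of the members moved with the time difference. Members that were higher at 3 hr in control slices had 51.2 to 60.4% GC in their longest transcript (median 54.0%), and those that were lower had 40.1 to 58.3% (median 45.8%), with Calm3 the one GC-rich gene among the latter. Over the 38 members the Spearman correlation of log2 fold change with GC content was 0.535 in control and 0.475 in LTP slices, given as a description of genes measured in the same libraries. When GC content and length were fitted as smooth offsets in each library, which removes such a trend by construction, the correlations were -0.0612 and -0.0093. With the offsets 10 members were called in control and 11 in LTP slices. The share of all genes called with the offsets is not given here, so these counts are not read against it. Of the 10 members called in both slice types 4 lost both calls. Map2k2 had an adjusted p of 0.225 in control and 0.200 in LTP slices, Mapk8 differed by -0.10 and -0.23, Rps6ka2 by 0.17 and 0.03, and Calm2 went below the fold minimum, whereas Camkk1 (0.38 and 0.30), Mapk14 (0.30 and 0.34), Camk4 (-0.45 and -0.42), Ppp3ca (-0.40 and -0.46), Ppp3cc (-0.37 and -0.29) and Calm3 (-0.57 and -0.59) kept theirs. No member was called in LTP against control slices at 1 hr or 3 hr with the offsets alone.

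**Figure D5:**
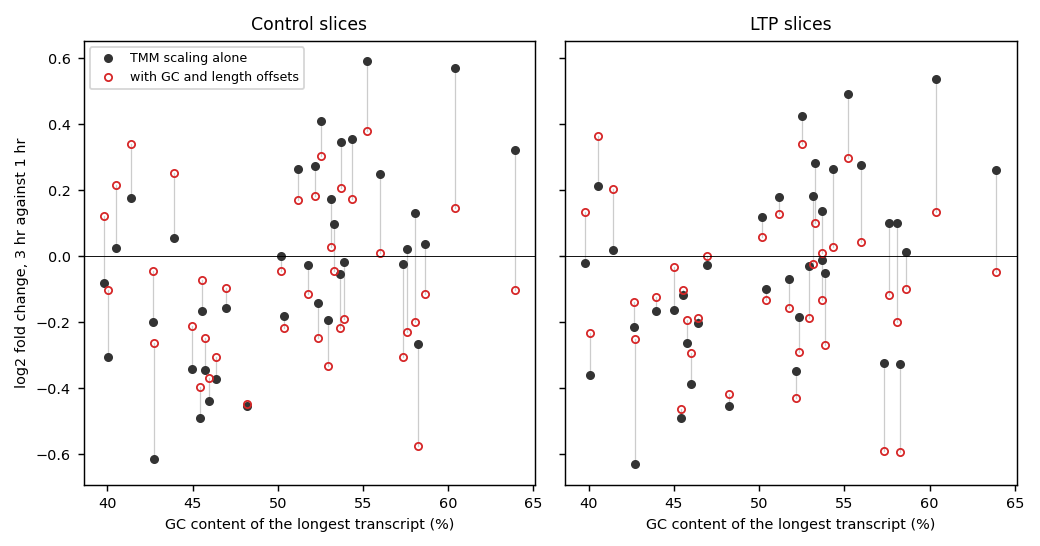
Log2 fold change of 3 hr against 1 hr for each member against the GC content of its longest transcript (%), in control (left) and LTP slices (right). Filled points use TMM scaling alone and open points add the GC and length offsets, with a grey line joining the values of a gene; the upward slope of the filled points is absent from the open ones.

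Cell type markers also moved with time. The 5 pyramidal neuron markers summed to 4710 to 5231 CPM in 1 hr controls and 3957 to 4011 CPM in 3 hr controls. In controls 3 of 5 were called lower (Neurod6, Snap25 and Grin2b), while Slc17a7 (0.08) and Rbfox3 (0.07) were above 0 without a call. The sums in LTP slices were 4521 to 5294 CPM at 1 hr and 4180 to 4934 CPM at 3 hr. There 2 of 5 were called lower (Neurod6 and Snap25), while Slc17a7 (0.21), Grin2b (0.19) and Rbfox3 (0.10) were above 0 without a call. Of the 5 microglia markers 4 were lower at 3 hr in both slice types, with sums of 168 to 197 CPM at 1 hr and 120 to 142 CPM at 3 hr over both. The 5 oligodendrocyte markers summed to 5605 to 8126 CPM at 1 hr and 7334 to 9108 CPM at 3 hr, and 2 of 5 were higher at 3 hr in each slice type. Sums of the other marker lists, of 5 genes each, were 1730 to 2014 CPM for astrocytes, 427 to 502 for interneurons, 117 to 137 for endothelium, 20.6 to 33.6 for thalamus and 23.3 to 29.3 for choroid plexus, whose defining genes Ttr and Kcnj13 were at 0 in some libraries. Camk4, Ppp3ca and Calm2 are all strongly expressed in neurons, and the part of these shifts in the members' differences was not tested. In LTP against control slices no marker was called at 1 hr, and 3 were at 3 hr. The pyramidal neuron marker Grin2b (0.64) and the endothelial Slco1c1 (0.28) were higher, and Calb2 of the thalamus list (-0.62) was lower. The rest of the thalamus list ranged from -0.18 (Rgs16) to 0.25 (Lef1) without a call.

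Other genes of the same pathways were taken from a list of 76 symbols, of which 75 were in the tables and 74 were tested. At 1 hr none was called in LTP slices by edgeR, and 1 had an unadjusted p under 0.05 (Rps6ka4, -0.30, adjusted p = 0.492). At 3 hr 6 were called (8.11%, against 6.6% of all genes), 5 higher and 1 lower. Sos1, an exchange factor that activates RAS, stood at 42.7 ± 0.962 CPM in controls and 59.1 ± 2.00 in LTP slices (SD, n = 3), a rise of 0.48 (SE 0.0601, adjusted p = 0.00551). Cabin1, a calcineurin-binding inhibitor, rose by 0.38 (adjusted p = 0.0635) and Mapkapk2, a kinase that p38 activates, by 0.27 (adjusted p = 0.0747). Map3k1, a kinase upstream of JNK, fell by 0.43 (adjusted p = 0.0551), from 17.4 ± 1.61 to 12.8 ± 1.13 CPM. None of the 74 was called for a change of the LTP effect between time points, with 8 at an unadjusted p under 0.05.

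Between time points 26 of the 74 (35.1%, against 32.8% of all genes) were called in control slices, 17 higher and 9 lower, and 29 (39.2%, against 35.9%) in LTP slices, 22 higher and 7 lower. These shares too were near those of all genes. Those with the smallest p among the higher ones in control slices were Mapkapk2 (0.56), Map2k3 (0.87), a kinase that activates p38, and Map3k11 (0.77), and in LTP slices Mapkapk2 (0.71), Map2k3 (0.94) and Mknk2 (0.64), a kinase activated by ERK and p38. Among the lower ones they were Akap5 (-0.60), an anchor that holds calcineurin and PKC at synapses, Prkci (-0.36) and Sos1 (-0.39) in control slices, and Akap5 (-0.48), Pcp4l1 (-0.62) and Gap43 (-0.38) in LTP slices. Mapkapk2 went from 38.6 ± 0.560 CPM (n = 2) to 57.9 ± 1.09 CPM (n = 3) in controls and from 41.6 ± 0.725 to 69.0 ± 5.39 CPM in LTP slices, and Map2k3 from 11.1 ± 0.737 to 20.8 ± 0.617 CPM and from 10.8 ± 0.442 to 21.0 ± 3.5 CPM.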

How the data were processed

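The authors extracted total RNA from hippocampal mini-slices, depleted ribosomal RNA, sequenced stranded paired-end libraries, aligned reads with STAR 2.4.1c to GRCm38 and counted reads per gene with R packages. The deposited tables, 1 for each time point, hold raw counts per gene for single libraries, with none pooled. The study describes its expression analysis as based on reads in coding regions, but the tables also count noncoding genes, so whether these counts are restricted in that way is not certain. Strand use in counting is not given in the sources used here, so antisense overlaps cannot be separated.

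Identifiers were matched to GENCODE M21 without version (40217 of 41091). Counts were tested with edgeR 4.0.16 (R 4.3.3; TMM, filterByExpr, quasi-likelihood F-test, Benjamini-Hochberg adjustment over all genes), within each time point for LTP against control, and in a 4-group model of 11 libraries for 3 hr against 1 hr and for the interaction. A call needed an adjusted p under 0.1 and more than 1.2-fold change, the thresholds of the study's methods; the interaction had no fold minimum. Intervals are 95% and cover the spread between these libraries. A count of 3, taken as the detection floor, is 0.0590 to 0.0808 CPM; all members were above it. The scripts were tested on simulated counts. No 2 replicates agreed within sampling noise.

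The members and the lists of other pathway genes and cell type markers were chosen with earlier results of these data known. Every member was tested and is named above, though some, such as Camk1d, Camk1g and Camkv, are given without levels or differences of their own. Other pathway genes are named if called in LTP against control, or among the 3 smallest p per direction with time. Of the 6 called at 3 hr, 2 are counted but not reported here. Same-numbered LTP and control libraries came from 1 animal per the labels; their deviations correlated at -0.0102, -0.240 and 0.0777 at 1 hr and 0.0670, 0.00508 and 0.293 at 3 hr, and the animal was fitted as a block as an alternative. Other alternatives were DESeq2 1.42.0, limma-voom 3.58.1, DESeq2 size factors, total counts or upper quartile in edgeR, no filter beyond 1 count, at least 10 counts in every library, GC and length offsets (splines with 5 df), the outlier library included, each library left out, and, chosen after the data were seen, no fold minimum.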

Additional observations from a re-analysis of the deposited data

How the results depend on the processing

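Paired analysis with the animal as a replicate block gave 0 members called at 1 hr, 0 at 3 hr and 0 for the change of the LTP effect. At 1 hr it compared LTP and control within animals 1 and 3 alone, since 1 hr control replicate 2 was left out. The 0 calls there thus say little. With that library included no member was called either, and the smallest adjusted p in edgeR was 0.796 (Camk2d). With the block and GC and length offsets together, again without that library, 1 was called at 1 hr (Prkcd, log2 difference 0.34). The block could not be fitted between time points, since the labels do not tie 1 hr replicates to 3 hr ones. With no filter beyond 1 count, 1 was called at 1 hr (Prkcd). Leaving out each library gave 0 to 2 members at 1 hr (2, Prkcd and Camk2d, without LTP replicate 3) and 0 to 1 at 3 hr (Camk2a without LTP replicate 2, Camk2n2 without LTP replicate 3). Without 1 hr control replicate 1 or 3 a single 1 hr control is left, assumed to vary like the other libraries in the fit, so the 0 calls at 1 hr there say little about stability. With no fold change minimum, 1 was called at 3 hr (Rps6ka3) and 20 between time points in LTP slices. All other settings gave 0 members at 1 hr, at 3 hr and for the change, 10 to 17 between time points in control slices, and 11 to 15 in LTP slices. Including the 1 hr control replicate 2 gave 11 and 13. Shares of all genes called under these settings are not given here, so the counts show only how the calls of members depended on the setting. The time difference of Nrgn in LTP slices ranged from -0.29 (without 3 hr LTP replicate 3, adjusted p = 0.0889, now a call in the opposite direction) to 0.23 on leaving out single libraries. The cause of these moves was not tested. With 2 or 3 libraries a group, changes under about 1.2-fold were within the intervals of many members.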
